A study of Carassius auratus with 6 samples.

Results

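The genes described here keep proteins folded or answer to misfolded protein and missing amino acids: chaperones of the cytosol, mitochondria and endoplasmic reticulum, the heat shock factors, the unfolded protein response, and the stress genes around the transcription factor ATF4. They were read from RNA sequencing of whole goldfish (Carassius auratus) eyeballs, in which normal eyes were set against celestial eyes, the upturned eyes of a fancy breed. Of 42 listed genes, 38 had at least 1 gene model whose best Swiss-Prot match carried the gene's name, or that name with a suffix of a, b, l, 1, 2 or -like. The 4 without a model under these names were hspa1, hsp90aa1, hspe1 and trib3. The rule gave 121 of the 56251 gene models, under 42 names. There were 34 models in the cytosolic group, 6 in the mitochondrial group, 56 in the endoplasmic reticulum group and 20 on the ATF4 axis. The suffix rule also caught 5 models of other genes, 4 of dnajb12 and 1 of ddit4l. They were kept out of these groups but are part of the 121. The names atf6b and hspa4l, also reached by a suffix, were counted within the groups.

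The 6 libraries, each from RNA of eyes frozen in liquid nitrogen, bear the titles C1 to C3 and R1 to R3. The labels contradict each other on the letters. The sample characteristics give normal eyes for C and celestial eyes for R, and the design text gives the opposite, with R fish taken from a farm in Jiangsu and C fish from a farm in Beijing. The groups are therefore called C and R, their phenotype is left unassigned, and every difference is C minus R. Eye type and farm cannot be told apart, since each letter stands for 1 farm. All fish were 1 winter year old, with 3 fish per letter, and no source gives a treatment, a genotype or a breed name beyond celestial eye. Nothing links a library to a fish, so a p-value here covers only the spread among libraries, which may be technical.

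As background, HSF1 switches on the inducible HSP70 genes when unfolded protein ties up the chaperones of the cytosol. In the endoplasmic reticulum the sensors IRE1, PERK and ATF6 do this work: IRE1 splices the XBP1 transcript, ATF6 is cut to release a transcription factor, and both then raise BiP and other lumenal chaperones. PERK and the amino acid sensor GCN2 slow translation while favouring that of ATF4, whose targets supply amino acids and glutathione metabolism, and, with CHOP, promote cell death under lasting stress. Photoreceptors make large amounts of rhodopsin in the endoplasmic reticulum, and lens fibre cells hold proteins that are never replaced, so both depend on chaperones. The table measures transcript levels only. It shows neither the splicing of xbp1 nor the translation of atf4.

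Values are FPKM (reads scaled to the length of the gene and the total of the library), and recovered totals were 9444623 to 11317200 reads per library. A model was tested if it reached 1 FPKM in at least 3 of the 6 libraries, and was called changed at an adjusted p under 0.05. The test was limma on log2(FPKM + 1), with Benjamini-Hochberg adjustment over all 33907 tested models. Fold changes on this scale understate those of low genes. Errors after ± are SDs over the 3 libraries of a group. All 8 photoreceptor markers of an eye were present, with 34240 to 46207 summed FPKM in C and 29186 to 34556 in R. Of these, arr3 (3818 to 6562 FPKM in C and 1782 to 2188 in R), sag (5081 to 5522 FPKM in C and 1372 to 1451 in R) and pde6c (208 to 268 FPKM in C and 150.2 to 166 in R) were apart and higher in C, and the other 5, rho among them, overlapped. Summed marker levels of several cell types differed between the letters. Lens markers, with 11 of 12 genes found, had 20061 to 37923 summed FPKM in C and 45667 to 48031 in R. Surface epithelium markers (6 of 8 found) had 1452 to 1815 summed FPKM in C and 2409 to 3523 in R, fibroblast and sclera markers (5 of 6 found) 2022 to 2854 summed FPKM in C and 1172 to 1795 in R, and red blood cell markers (4 of 6 found) 9177 to 23369 summed FPKM in C and 2580 to 5585 in R. No found marker of these 4 lists was at 0 in any library. Every found lens marker was apart between the letters, but other markers did not all follow their sum. The letters overlapped for krt17, krt18 and cldn4, for col5a1 and dcn, and for slc4a1. Of these, krt18 leaned the other way, at 430 to 557 FPKM in C and 371 to 443 in R, and slc4a1 had 37.9 to 53.4 FPKM in C and 43.8 to 57.5 in R. The summed ranges of photoreceptor, pigment epithelium, skeletal muscle and leukocyte markers overlapped between C and R. Among pigment epithelium markers rpe65 was apart and higher in C, at 318 to 730 FPKM in C and 181 to 229 in R. The marker lrat was apart and lower in C, at 1.43 to 2.84 FPKM in C and 4.80 to 9.88 in R, and rlbp1 overlapped. In bulk samples, fewer cells of a type and less RNA per cell cannot be told apart, and the part of these shifts in the values below was not tested.

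More of these genes were higher than lower in C. Of the 110 models tested, 25 changed, 22 of them higher and 3 lower in C. These counts include the 5 models of other genes, of which 1, that of ddit4l, was higher. Over all tested models 20.2% changed, 8.67% higher and 11.6% lower in C, so the share of these genes that changed, 22.7%, was near the background. Of the 25, 2 (1 of atf4 and 1 of hsp70) had reached the minimum only through C. Leaving out every model that passed through 1 letter alone, 23 of 108 changed, 21.3% against 17.1% of all models. The directions over all models moved with scaling: 42.8% of changed models were higher in C with the values as deposited, and 52.0% once the median log2 ratio was brought to 0. With that scaling 28 of these genes' models were higher and 3 lower in C, where 10.9% of all models were higher and 10.1% lower. The cytosolic group had 10 higher and 1 lower of 33 tested, the mitochondrial group 2 higher of 6, the endoplasmic reticulum group 5 higher and 2 lower of 47, and the ATF4 axis 4 higher and none lower of 19. Median log2 fold changes were 0.23 in the cytosol, 0.29 in mitochondria, -0.06 in the endoplasmic reticulum and 0.27 on the ATF4 axis, against -0.09 over all tested models. The endoplasmic reticulum median lay above 0, at 0.04, when the median ratio of all models was set to 0. The count rested on most of the libraries: it was 14 without C1, 13 without R1 and 13 without R2, where the shares over all models were 11.2%, 9.11% and 7.97%.

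**Figure D1:**
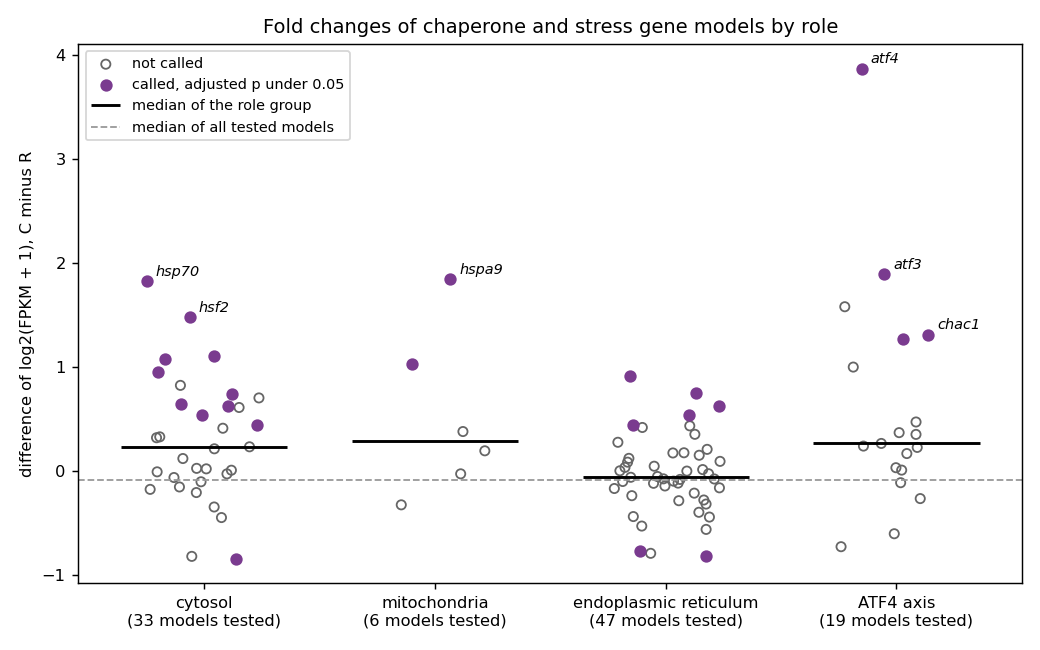
Each point is 1 tested gene model, placed by role on the horizontal axis and by its difference of log2(FPKM + 1), C minus R, on the vertical axis; filled points were called, bars are group medians and the dashed line is the median of all tested models. The endoplasmic reticulum points gather around the dashed line with a median of -0.06, while a single atf4 model stands at 3.87.

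Of the HSP70 genes, the inducible chaperones that heat shock raises most, 3 of 6 models were called higher in C and the other 3 were not called. Over all 33907 tested models, 5543 had every C library above every R library, and 41.4% were apart in either direction. In all 6 hsp70 models the 3 C libraries lay above the 3 R libraries. The highest was Cau.03G0013610 on chromosome 3 from 27467353 to 27476615, plus strand, with 16.1, 13.5 and 12 FPKM in C1, C2 and C3, against 5.02, 6.03 and 6.57 FPKM in R1, R2 and R3 (log2 fold change 1.11 with an SE of 0.15, adjusted p = 0.00277 by limma). Its description in the files names a protein of a nematode, so its identity beyond an HSP70 match is uncertain. The model Cau.28G0012570 on chromosome 28 from 26112807 to 26114740, plus strand, had 8.68, 11.2 and 5.88 FPKM in C1, C2 and C3, against 1.07, 1.17 and 3.03 FPKM in R1, R2 and R3. It was 4.88 times as high in C by the means (log2 fold change 1.83 with an SE of 0.31, adjusted p = 0.00657 by limma). Within R, the library R3 stood above R1 and R2 at this model. Its neighbour Cau.28G0012560, which carries the same RefSeq accession and lies head to head with it, had 7.23 ± 0.924 FPKM in C against 3.84 ± 1.72 in R and was not called (adjusted p = 0.0658). The third called model, Cau.03G0014560, is short and weakly expressed at 1.43 ± 0.296 FPKM in C against 0.249 ± 0.156 in R (log2 fold change 0.96 with an SE of 0.19, adjusted p = 0.0117 by limma), and its call was lost without R1 or R2 (adjusted p 0.0597 to 0.0667). It reached the minimum for the test only through C, which also fixed its C libraries above its R libraries. Its call and its separation are counted above but lend the hsp70 counts no support. The models Cau.28G0013400 and Cau.03G0013600 had log2 fold changes of 0.70 and 0.61 (adjusted p = 0.0537 and 0.0849).

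Because reads of near-identical copies may have been split between models, FPKM was also summed over all models of a name, and the sums were fitted for all 12592 names that passed the same minimum. Of the 42 names here, 8 were higher, ddit4l among them, and 1 was lower in C. Over all names 7.93% were higher and 11.2% lower. With the median ratio set to 0 the split was 12 higher and none lower, where 10.5% of all names were higher and 10.1% lower. The hsp70 sum was 43.4, 45.2 and 35.1 FPKM in C1, C2 and C3, against 14.6, 15.1 and 22.2 FPKM in R1, R2 and R3 (log2 fold change 1.22 with an SE of 0.18, adjusted p = 0.00363 by limma). No R library reached the lowest C library.

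The sums of both heat shock factor genes rose in C. For hsf1, the master regulator of the heat shock response, the sum over 4 models was 117, 135 and 115 FPKM in C1, C2 and C3, against 79.2, 73.5 and 77.5 FPKM in R1, R2 and R3 (log2 fold change 0.66 with an SE of 0.10, adjusted p = 0.00526 by limma). The difference lay mainly in 1 copy, Cau.10G0007940 on chromosome 10 from 18232890 to 18239745, minus strand. It had 81.2, 97.6 and 84.8 FPKM in C1, C2 and C3, against 45.1, 36.9 and 41.1 FPKM in R1, R2 and R3 (log2 fold change 1.08 with an SE of 0.13, adjusted p = 0.00164 by limma). The copies on chromosomes 44 and 19 were not called, at 16.7 ± 3.45 FPKM in C against 18.8 ± 0.798 in R and at 16.2 ± 1.55 FPKM in C against 13.8 ± 0.893 in R. The RefSeq symbol hsf1 belongs to the copy on chromosome 19, not to the chromosome 10 copy that held most of the difference. The weakest copy, Cau.43G0005300, went the other way, with 1.36 ± 0.221 FPKM in C against 3.22 ± 0.133 in R (log2 fold change -0.84 with an SE of 0.16, adjusted p = 0.0109 by limma), a call lost without R2 (adjusted p = 0.058). For hsf2, a related factor that can act together with HSF1, all 3 models were higher in C. Their sum was 43.5, 44 and 43.9 FPKM in C1, C2 and C3, against 25.7, 23.3 and 24.2 FPKM in R1, R2 and R3 (log2 fold change 0.82 with an SE of 0.09, adjusted p = 0.00156 by limma), with the 3 C libraries close together and above every R library. The main copy, Cau.20G0010600 on chromosome 20 from 24162897 to 24167914, minus strand, had 26.7 ± 1.74 FPKM in C against 15.6 ± 0.556 in R (adjusted p = 0.00349). Of the 2 copies on chromosome 45, which share an accession, Cau.45G0009230 had 12.8 ± 0.174 FPKM in C against 7.94 ± 0.992 in R and Cau.45G0009280 had 4.32 ± 1.38 FPKM in C against 0.88 ± 0.272 in R. Their log2 fold changes were 0.63 and 1.48 (limma adjusted p = 0.0127 and 0.00473), and the call of the first was lost without R2 (adjusted p = 0.0599).

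The constitutive cytosolic chaperones were not called as sums. The single hsp90ab1 model, the constitutive HSP90, was at 391 ± 7.23 FPKM in C against 393 ± 25.4 in R, overlapping between the groups (log2 fold change -0.01 with an SE of 0.12, adjusted p = 0.978 by limma). The name hspa8, the constitutive HSC70, had the highest sum of a chaperone name here. That sum was 579 ± 32.9 FPKM in C against 501 ± 37.1 in R (log2 fold change 0.21, adjusted p = 0.208 by limma), with every C library above every R library. The highest hspa8 model, Cau.10G0007230, ends at 16618332 on the plus strand and had 241 ± 30.4 FPKM in C against 236 ± 28 in R. The model next to it, Cau.10G0007240 on chromosome 10 from 16618630 to 16624163, plus strand, was called higher in C, with 176, 138 and 168 FPKM in C1, C2 and C3, against 122, 109 and 98 FPKM in R1, R2 and R3 (log2 fold change 0.55, adjusted p = 0.0357 by limma). The files describe that model as a jhy protein homolog although its Swiss-Prot match is HSC70, it overlaps another model on the opposite strand, and the call was lost without C1, C3, R1, R2 or R3 (adjusted p 0.0681 to 0.121) and with quantile normalization (adjusted p = 0.14). Whether these adjacent models are parts of 1 gene was not tested. If they are, the hspa8 sum counts that gene more than once, and its rank among the sums need not hold.

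Among the co-chaperones, bag3, which routes HSP70 clients to autophagy, was higher in C. It had 10.4, 10.9 and 7.07 FPKM in C1, C2 and C3, against 6.24, 5.73 and 4.82 FPKM in R1, R2 and R3 (log2 fold change 0.65 with an SE of 0.18, adjusted p = 0.0429 by limma). The lowest C library, C3, still lay above the highest R library, but the call was lost without C1, C2, R1, R2 or R3 (adjusted p 0.0859 to 0.137). The J-domain genes that hand clients to HSP70 were not called under either name: dnaja1 summed to 18.9 ± 2.53 FPKM in C against 16.7 ± 1.9 in R, and dnajb1 to 19.4 ± 1.12 FPKM in C against 21.5 ± 1.05 in R. The highest copy of dnaja1, Cau.01G0010140, had 13 ± 2.95 FPKM in C against 10.1 ± 1.28 in R, and that of dnajb1, Cau.28G0005430, had 6.63 ± 0.70 FPKM in C against 6.76 ± 0.604 in R. Of the HSP110-type exchange factors, hsph1 had a lower sum in C, at 7.16, 4.83 and 5.42 FPKM in C1, C2 and C3, against 8.81, 8.47 and 9.93 FPKM in R1, R2 and R3 (log2 fold change -0.58, adjusted p = 0.0386 by limma). Neither of its 2 models was called alone, the sum's call was lost without C2, C3, R1, R2 or R3 (adjusted p 0.0587 to 0.127), and it was also lost under quantile normalization (adjusted p = 0.086) and with the median ratio set to 0 (adjusted p = 0.0535). The related hspa4 summed to 64.6 ± 4.6 FPKM in C against 54.6 ± 1.27 in R (adjusted p = 0.128; 0.0499, and so called, with the median ratio set to 0), and its highest copy, Cau.39G0011450, had 26 ± 2.65 FPKM in C against 23.7 ± 0.358 in R. Another of its 4 copies, Cau.21G0012630, was called higher in C at 16 ± 1.82 FPKM in C against 11.5 ± 0.764 in R (adjusted p = 0.0432), and that call was lost without C1, C2, R1, R2 or R3 (adjusted p 0.0676 to 0.142). The sum of hspa4l was 22 ± 4.39 FPKM in C against 24.2 ± 3.74 in R, with the 2 groups overlapping.

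**Figure D2:**
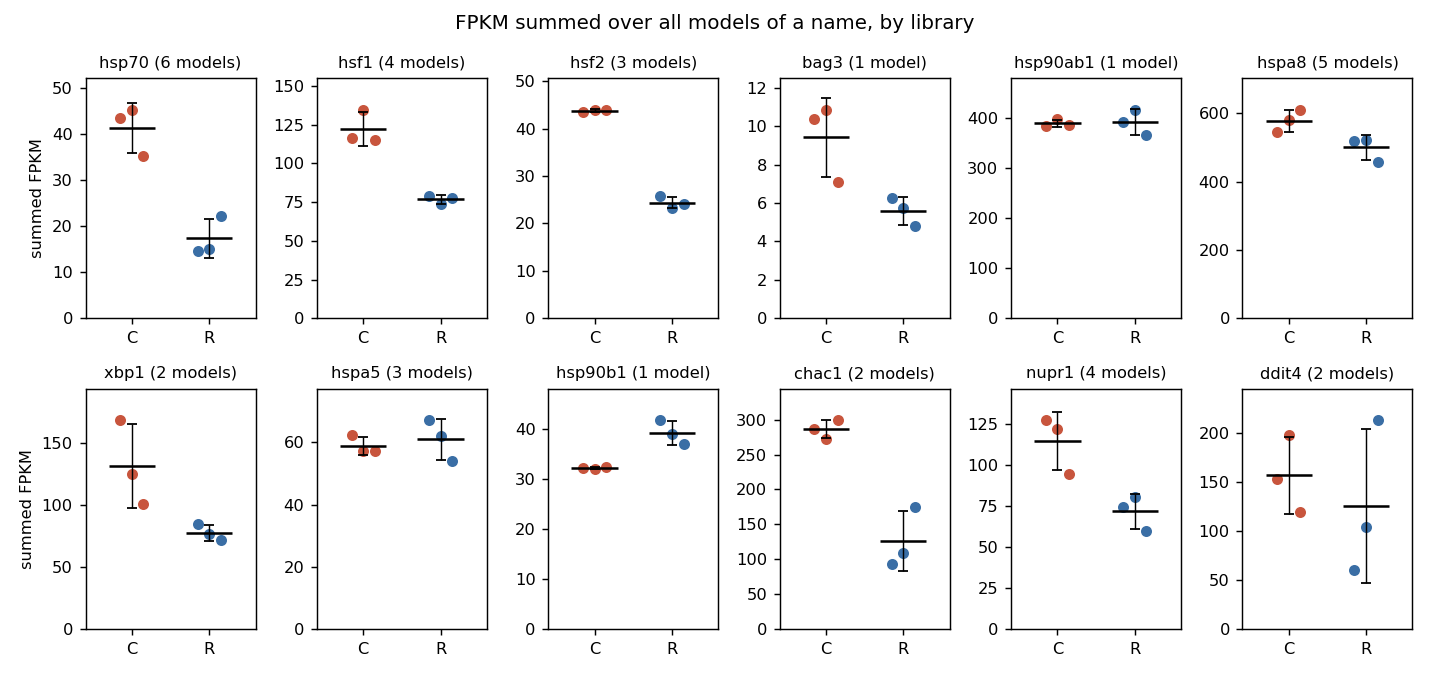
FPKM summed over all models of a name (vertical axes, from 0) in the 3 C libraries (left) and the 3 R libraries (right) for 12 names; points are libraries, bars are means and whiskers SDs. The C points lie above the R points for hsp70, hsf1, hsf2, bag3, hspa8, xbp1, chac1 and nupr1 and below them for hsp90b1, while hsp90ab1 averaged 391 FPKM in C and 393 in R, and for ddit4 the library R3 is above all others at 213 FPKM.

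In mitochondria the sums did not differ past the threshold, but the copies of hspa9 were unlike each other. The gene hspa9 encodes mortalin, the HSP70 of the import motor, and summed to 71 ± 9.22 FPKM in C against 53.6 ± 2.41 in R (log2 fold change 0.39, adjusted p = 0.0552); the sum was called higher with the median ratio set to 0 (adjusted p = 0.0392) and without C1 (adjusted p = 0.036). Its main copy, Cau.39G0000840, had 27.1 ± 3.82 FPKM in C against 27.5 ± 1.65 in R. A neighbouring pair of models on chromosome 33 was higher in C. Cau.33G0010180, on chromosome 33 from 21867617 to 21873848, minus strand, had 14.1, 14.7 and 17.1 FPKM in C1, C2 and C3, against 5.86, 3.71 and 1.88 FPKM in R1, R2 and R3 (log2 fold change 1.84 with an SE of 0.29, adjusted p = 0.0047 by limma). The model beside it, Cau.33G0010190, starts at 21874252 and had 11.9, 23.9 and 15.3 FPKM in C1, C2 and C3, against 5.73, 10.1 and 7.16 FPKM in R1, R2 and R3 (adjusted p = 0.0336), a call lost without C2, C3, R1 or R3 (adjusted p 0.0613 to 0.112). No R library reached a C library at either model. Whether these adjacent models are parts of 1 gene was not tested. If they are, the 2 calls and the hspa9 sum count that gene more than once. Cau.33G0010180 shares its RefSeq accession with the copy on chromosome 14, which had 11.5 ± 0.822 FPKM in C against 14.7 ± 1.84 in R and was not called. The chaperonin gene hspd1, encoding HSP60, summed to 36.4 ± 3.69 FPKM in C against 29.7 ± 3.96 in R (adjusted p = 0.156), with its highest copy, Cau.09G0008210, at 19.8 ± 2.47 FPKM in C against 17.1 ± 1.91 in R.

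The chaperones and folding enzymes of the endoplasmic reticulum, 14 names without the sensors, xbp1, herpud1 and serpinh1, were rarely called. Of 34 models tested, 1 was higher and 1 lower in C, 5.88% against 20.2% of all models, with a median log2 fold change of -0.08 against -0.09 over all models. This grouping was made outside the planned role groups and leaves out most of the called models. In the whole endoplasmic reticulum group 14.9% of 47 tested models changed. BiP, the chaperone that holds the sensors silent and the usual readout of the unfolded protein response, is encoded by hspa5. Its main model, Cau.05G0003100 on chromosome 5 from 38571522 to 38574912, plus strand, had 60.2, 54.6 and 55 FPKM in C1, C2 and C3, against 61.1, 56.7 and 50.4 FPKM in R1, R2 and R3 (log2 fold change 0.02 with an SE of 0.12, adjusted p = 0.939 by limma). These 6 values overlap. The model overlaps one matched to rabepk on the opposite strand, and the main copies of hsf2 and hspa9, the highest hspa8 copy and the chromosome 30 copy of xbp1 also overlap models on the opposite strand, whose reads cannot be told apart without strand. A weak second model, Cau.30G0000380, was lower in C at 2.37 ± 0.285 FPKM in C against 4.99 ± 1.18 in R (log2 fold change -0.81, adjusted p = 0.0236 by limma). The files describe it as an HSPA1 protein of a sea louse, it overlaps a model on the opposite strand, and its call was lost without C1, R1 or R2 (adjusted p 0.0784 to 0.10). Another hspa5 model, beside it on chromosome 30, was listed at 0 in all 6 libraries.

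The HSP90 of the lumen, hsp90b1, had 32.3, 32 and 32.4 FPKM in C1, C2 and C3, against 41.8, 39.1 and 37 FPKM in R1, R2 and R3. Each C library was below each R library, but the difference was not called (log2 fold change -0.28, adjusted p = 0.105 by limma) except with quantile normalization (adjusted p = 0.028). The lectins that hold glycoproteins were not called: calr summed over 7 models to 115 ± 3.84 FPKM in C against 129 ± 15.9 in R, and canx over 3 to 103 ± 10.2 FPKM in C against 120.4 ± 7.13 in R. With quantile normalization the canx sum was called lower in C (adjusted p = 0.0457). On chromosome 14, Cau.14G0001760 ends at 4476543 and Cau.14G0001770 starts at 4476823, on the same strand. The first had 30.7 ± 10.7 FPKM in C against 43.1 ± 2.42 in R, the second 39.1 ± 1.17 FPKM in C against 39.8 ± 2.85 in R. Whether these adjacent models are parts of 1 gene was not tested. If they are, the canx sum counts that gene more than once. Of the disulfide isomerases, pdia3 summed to 163 ± 8.67 FPKM in C against 173 ± 12.4 in R, pdia4 to 26.8 ± 1.44 FPKM in C against 31 ± 2.4 in R and pdia6 to 27.9 ± 2.76 FPKM in C against 26.9 ± 2.2 in R, and none of these sums was called. Their highest copies were Cau.25G0007780 for pdia3 (112 ± 7.12 FPKM in C against 119 ± 7.33 in R), Cau.24G0003830 for pdia4 (20.6 ± 0.519 FPKM in C against 24 ± 1.31 in R) and the single pdia6 model. A minor pdia3 copy, Cau.44G0009270 on chromosome 44 from 21298009 to 21305970, minus strand, was the 1 model of the 16 tested lectin and isomerase models that was called, higher in C at 5.5 ± 0.697 FPKM in C against 2.52 ± 1.02 in R (adjusted p = 0.0277), and its call was lost without C1, C2, C3, R1 or R2 (adjusted p 0.0512 to 0.0924).

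The other lumenal genes had sums that were not called. The partners of BiP were at 17.3 ± 1.03 FPKM in C against 18.3 ± 0.77 in R for dnajb11 (ERdj3), at 23.4 ± 1.14 FPKM in C against 26.5 ± 2.35 in R for dnajc3 (P58IPK) and at 14.3 ± 2.66 FPKM in C against 13.1 ± 0.762 in R for dnajb9 (ERdj4, a classic XBP1 target). The highest copies of these 3 names, Cau.09G0008280, Cau.34G0007570 and Cau.25G0007380, had log2 fold changes of 0.04, 0.09 and 0.35. Sums were 16 ± 0.624 FPKM in C against 15.7 ± 0.454 in R for sdf2l1, 7.6 ± 1.35 FPKM in C against 7.58 ± 1.22 in R for creld2, 29.4 ± 2.04 FPKM in C against 23.5 ± 3.66 in R for manf and 9.83 ± 2.53 FPKM in C against 8.43 ± 0.821 in R for hspa13. The first 3 of these are genes that endoplasmic reticulum stress raises in mammals. The degradation factor herpud1 had 23.8, 25.3 and 22.8 FPKM in C1, C2 and C3, against 19.6, 20.3 and 18.8 FPKM in R1, R2 and R3, so its groups were apart. It was not called (log2 fold change 0.28, adjusted p = 0.103 by limma) except with the median ratio set to 0 (adjusted p = 0.0468).

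The transcription factor gene xbp1, downstream of IRE1, was higher in C. Its sum was 169, 125 and 101 FPKM in C1, C2 and C3, against 84.5, 76.4 and 72 FPKM in R1, R2 and R3 (log2 fold change 0.73 with an SE of 0.18, adjusted p = 0.0273 by limma). The value of C1 was the highest and that of C3 stood nearest to R, and the call was lost without C1, R1, R2 or R3 (adjusted p 0.0588 to 0.0949). Both copies were called. The main one, Cau.05G0019190 on chromosome 5 from 1316572 to 1319847, minus strand, had 99.5 ± 30.6 FPKM in C against 57.3 ± 6.93 in R (adjusted p = 0.0462), lost without C1, C2, R1, R2 or R3 (adjusted p 0.0731 to 0.141), with quantile normalization (adjusted p = 0.115), with a pseudocount of 0.1 (adjusted p = 0.0522) and with no filter on low values (adjusted p = 0.0655). The chromosome 30 copy, Cau.30G0003260, had 35.1, 34 and 27 FPKM in C1, C2 and C3, against 19.5, 20.8 and 20.5 FPKM in R1, R2 and R3 (log2 fold change 0.63, adjusted p = 0.0144 by limma), lost without C1, R1 or R2 (adjusted p 0.0556 to 0.0649). Of the sensors that are themselves transcription factors, atf6 summed to 21.3 ± 1.58 FPKM in C against 21.2 ± 1.28 in R, with its highest copy, Cau.45G0007480, at 13.7 ± 0.496 FPKM in C against 11.7 ± 0.354 in R. For atf6b the sum was 32 ± 0.904 FPKM in C against 25.3 ± 1.99 in R (adjusted p = 0.058), and its main copy, Cau.44G0012220 on chromosome 44 from 28321975 to 28337372, minus strand, was called at 25.3 ± 0.123 FPKM in C against 18.3 ± 1.25 in R (log2 fold change 0.45, adjusted p = 0.0247 by limma). That call was lost without C1, C2, R1, R2 or R3 (adjusted p 0.0527 to 0.0877) and with quantile normalization (adjusted p = 0.0524). The atf6b sum was called with quantile normalization (adjusted p = 0.0487), with the median ratio set to 0 (adjusted p = 0.0268) and without C3 (adjusted p = 0.048).

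The collagen chaperone HSP47, encoded by serpinh1, moved in opposite directions at its 2 main copies. The copy Cau.15G0008570 on chromosome 15 from 20307434 to 20311117, minus strand, was lower in C, with 19, 19.6 and 11.9 FPKM in C1, C2 and C3, against 35.5, 24 and 27.2 FPKM in R1, R2 and R3 (log2 fold change -0.76, adjusted p = 0.0456 by limma). The copy Cau.10G0009230 on chromosome 10 from 20130308 to 20138959, plus strand, was higher in C, with 21.6, 28.8 and 21.3 FPKM in C1, C2 and C3, against 17.4, 14.4 and 16.2 FPKM in R1, R2 and R3 (log2 fold change 0.54, adjusted p = 0.0394 by limma). Over all 8 models the sum overlapped between the groups, at 51.8 ± 8.38 FPKM in C against 59.1 ± 10.4 in R (adjusted p = 0.45). Both single calls were lost when a library was left out, the lower one without C1, C3, R1, R2 or R3 (adjusted p 0.0747 to 0.145) and the higher one without C1, C2, R1, R2 or R3 (adjusted p 0.0694 to 0.146). The collagen models, the clients of this chaperone, held 1.65% to 2.37% of reads in C and 1.13% to 1.55% in R, and the part of this in the serpinh1 values was not tested.

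The 7 calls of the endoplasmic reticulum group did not hold when some single libraries were left out. With limma no model was called without C1, R1 or R2, where 13, 9 and 8 models had an unadjusted p under 0.05. The share of all models called also fell without each of these libraries, as given above. The voom variant of limma, run on reads recovered from FPKM, called 4, 2 and 4 models without the same libraries and 7 with all of them. With quantile normalization 3 were higher and 3 lower in C.

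On the ATF4 axis the factor atf4 itself held the largest single change among these genes, without a like change in its total. The model Cau.30G0016310 on chromosome 30 from 34274883 to 34277433, minus strand, had 22.2, 18.5 and 14.7 FPKM in C1, C2 and C3, against 0.203, 0.191 and 0.588 FPKM in R1, R2 and R3 (log2 fold change 3.87 with an SE of 0.20, adjusted p = 3.91e-05 by limma). It was under 1 FPKM in each R library, so it reached the minimum for the test only through C, and it held a small part of the atf4 total in C. The main copies were not called: Cau.06G0000390 had 135 ± 9.54 FPKM in C against 115 ± 10.2 in R and Cau.03G0015420 had 83.9 ± 3.88 FPKM in C against 83.7 ± 10.9 in R. Summed over 4 models, atf4 was 257, 231 and 228 FPKM in C1, C2 and C3, against 224, 194 and 183 FPKM in R1, R2 and R3 (log2 fold change 0.25 with an SE of 0.11, adjusted p = 0.152 by limma). The weak copy Cau.31G0000090, at 1.07 ± 0.184 FPKM in C against 1.03 ± 0.27 in R, carries the same RefSeq accession as the chromosome 30 model, so reads could have been shared between the pair.

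A similar picture held for atf3, a factor that many stresses raise. The main copy Cau.20G0009820 overlapped between the groups at 51.2, 48.3 and 26 FPKM in C1, C2 and C3, against 25, 32.2 and 36.3 FPKM in R1, R2 and R3 (adjusted p = 0.351). The library C3 was as low as R1 there, and without C3 the copy was called higher in C (adjusted p = 0.0387). A minor copy, Cau.45G0008580 on chromosome 45 from 21895721 to 21899956, plus strand, was higher in C, with 8.25, 6.62 and 4.37 FPKM in C1, C2 and C3, against 1.05, 0.146 and 2.13 FPKM in R1, R2 and R3 (log2 fold change 1.90 with an SE of 0.37, adjusted p = 0.0117 by limma). A second model on the same chromosome and with the same accession, Cau.45G0008660, lay the other way at 2.46 ± 1.07 FPKM in C against 4.78 ± 2.06 in R and was not called (adjusted p = 0.128). The sum was 50.7 ± 16.5 FPKM in C against 37 ± 6.69 in R, called only without C3 (adjusted p = 0.0177) among the settings tried. For ddit3, which encodes CHOP, the single model had 5.01, 6.91 and 2.37 FPKM in C1, C2 and C3, against 3.22, 3.96 and 3.39 FPKM in R1, R2 and R3, and C3 was the lowest library of all 6. It was not called (log2 fold change 0.27, adjusted p = 0.557); its sum fitted over names was called without C3 (adjusted p = 0.0442).

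Of the effector genes, chac1 and nupr1 had sums by name that were called higher in C, and asns, sesn2 and ddit4 were not called. The enzyme CHAC1 degrades glutathione, and its gene is a well-known ATF4 target in mammals. The sum was 287, 273 and 299 FPKM in C1, C2 and C3, against 93.5, 109 and 175 FPKM in R1, R2 and R3 (log2 fold change 1.23 with an SE of 0.21, adjusted p = 0.00713 by limma). The 3 C libraries lay close together, and in R the library R3 was the highest. The main model, Cau.45G0005860 on chromosome 45 from 16376202 to 16378477, plus strand, had 268 ± 10.3 FPKM in C against 112 ± 40.4 in R (adjusted p = 0.00769 by limma) and overlaps a model matched to ino80 on the opposite strand. The chromosome 20 copy was at 18 ± 2.84 FPKM in C against 13.9 ± 3.11 in R and was not called (adjusted p = 0.209).

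The stress-induced nuclear protein gene nupr1 summed to 127, 122 and 94.6 FPKM in C1, C2 and C3, against 74.5, 80.4 and 59.8 FPKM in R1, R2 and R3 (log2 fold change 0.67 with an SE of 0.16, adjusted p = 0.0221 by limma), a call lost without C1, C2, R1 or R3 (adjusted p 0.0503 to 0.0761). Its copy Cau.28G0013350 on chromosome 28 from 27288829 to 27289780, minus strand, had 47.9, 40.0 and 29.3 FPKM in C1, C2 and C3, against 21.1, 13 and 13 FPKM in R1, R2 and R3 (log2 fold change 1.27 with an SE of 0.24, adjusted p = 0.00945 by limma). That copy overlaps a model on the opposite strand. The 2 models on chromosome 5 that share the name are described in the files as nuclear protein 2, and neither was called. Cau.05G0002660 had 25.3 ± 10.1 FPKM in C against 28.7 ± 2.22 in R. Cau.05G0002730 had 31.1 ± 12.8 FPKM in C against 11.7 ± 10.7 in R. Both are large parts of the sum, which is therefore not of nuclear protein 1 alone. The asparagine synthetase gene asns, a standard readout of amino acid shortage, had 6.97, 6.84 and 6.41 FPKM in C1, C2 and C3, against 7.24, 7.27 and 7.55 FPKM in R1, R2 and R3 (log2 fold change -0.11 with an SE of 0.12, adjusted p = 0.541 by limma).

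The 2 main copies of sesn2, which encodes a leucine sensor that restrains mTORC1, lay on either side of 0. The copy Cau.19G0006970 had 4.29 ± 0.239 FPKM in C against 2.81 ± 0.172 in R (log2 fold change 0.47, adjusted p = 0.0528) and Cau.44G0005740 had 2.37 ± 0.519 FPKM in C against 4.1 ± 0.696 in R (log2 fold change -0.60, adjusted p = 0.0581). In both the C and R libraries were apart, and neither was called. With quantile normalization or the median ratio set to 0 the first was called (adjusted p = 0.0254 and 0.0335). Another model, on an unplaced contig, had no read in C and, summed over R1 to R3, 54 reads, at least 17.2-fold lower in C against a floor of 3 reads over the group. It was below the minimum for the test, and the files describe it as a transposon-derived protein. The sesn2 sum was 6.66 ± 0.283 FPKM in C against 8.55 ± 1.86 in R (adjusted p = 0.22). That sum includes the contig model, at 0 FPKM in C and a mean of 1.64 FPKM in R, and so is not of sesn2 alone.

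The gene ddit4, whose product REDD1 also restrains mTORC1, varied more between libraries of a letter than between letters. Its sum was 153, 198 and 119.7 FPKM in C1, C2 and C3, against 60.7, 104 and 213 FPKM in R1, R2 and R3 (log2 fold change 0.47 with an SE of 0.40, adjusted p = 0.437 by limma). The library R3 was the highest and R1 the lowest of all 6. Its highest copy, Cau.12G0011900, had 91.4 ± 30.0 FPKM in C against 87.9 ± 52.2 in R, and the chromosome 37 copy had 65.5 ± 11.1 FPKM in C against 37.9 ± 26.4 in R (adjusted p = 0.159).

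**Figure D3:**
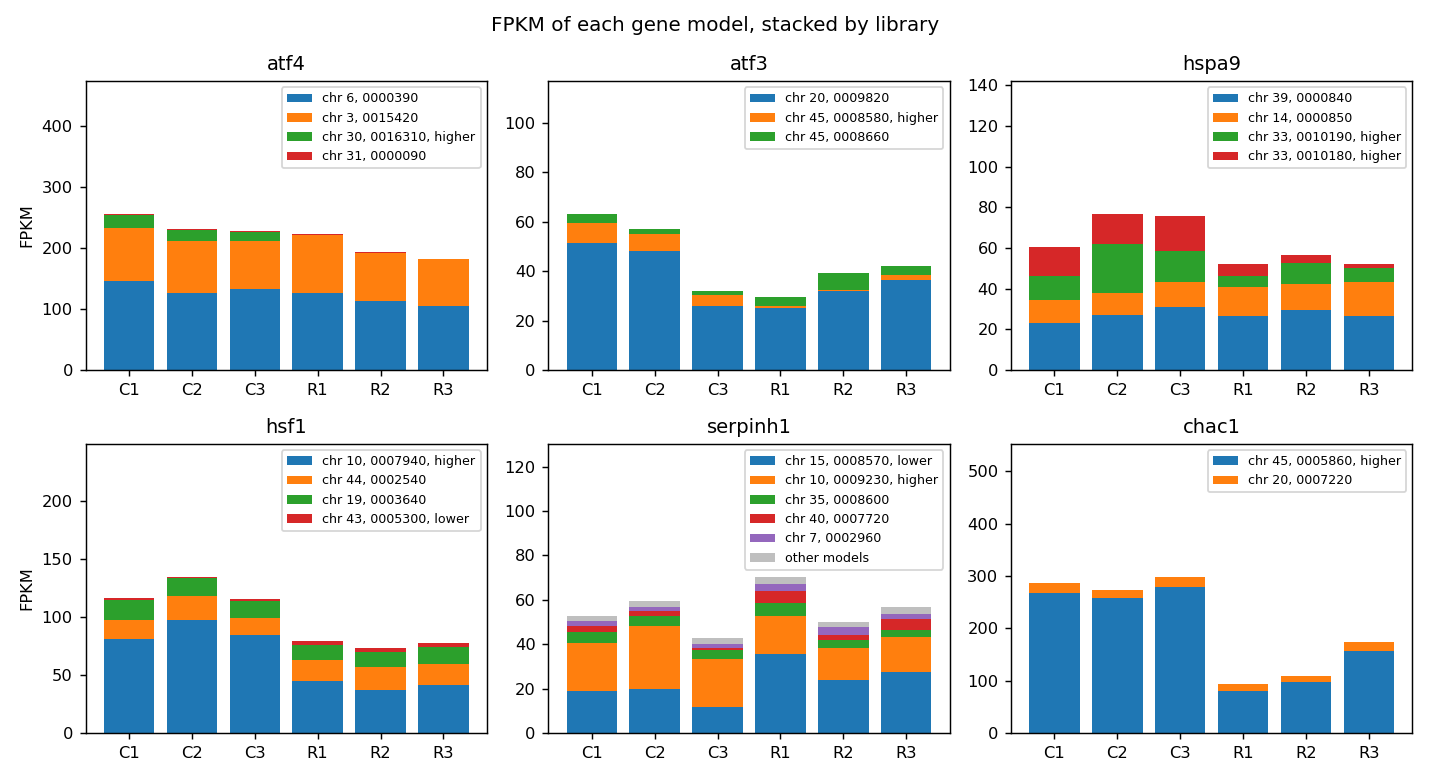
Stacked FPKM of the models of 6 names in each library (C1 to C3 left, R1 to R3 right), labelled by chromosome and the end of the model's identifier; "higher" and "lower" mark models called in C against R. The called atf4 model adds 18.5 FPKM on average to C bars and 0.327 to R bars, and the chromosome 10 copy of hsf1 fills most of the difference between the hsf1 bars.

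The transcription factors of these responses are hsf1, hsf2, xbp1, atf6, atf6b, atf4, atf3 and ddit3. Of their 21 tested models, 9 were higher and 1 lower in C, 47.6% changed against 20.2% of all models, including the minor copies of atf4 and atf3. The set was gathered across the role groups outside the written plan. Its called atf4 copy reached the minimum only through C. That call is counted in the 47.6% but lends it no support. Without models of that kind 17.1% of all models changed, and the like share for this set was not worked out. Goldfish carry a duplicated genome, and of the 4543 names with exactly 2 placed models in the files, 76.3% have them 25 chromosome numbers apart. Among the genes here there were 49 such pairs with both models tested, under 31 names. In 5 pairs both models were higher in C, in 12 only 1 was called, in 32 neither was called, and no pair had opposite calls. Over all 12425 such pairs in the table, both models were higher in 2.16% and lower in 2.54%, only 1 was called in 26.4%, neither in 68.1%, and calls were opposite in 0.748%. The shares among the genes here were 10.2% with both higher, 24.5% with 1 called and 65.3% with neither. These pairs are not independent, since each hsp70 model on chromosome 3 was paired with each one on chromosome 28. The 5 pairs belong to hsf2, hsp70 and xbp1 and share models, since hsf2 has 2 models on chromosome 45 and 1 hsp70 model pairs with 2 others. The hsp70 pair of Cau.03G0014560 and Cau.28G0012570 is counted in that share but lends it no support, because Cau.03G0014560 reached the minimum only through C. The opposite calls within hsf1 and serpinh1 were between models on chromosomes that are not 25 apart.

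Library C3 was low for the ATF4 axis. Relative to the mean of its group, the median deviation of the 19 tested ATF4 models was 0.13 in C1, 0.02 in C2 and -0.29 in C3 on the log2(FPKM + 1) scale, and 4 of 19 models in C3 were above the mean of C. In the cytosolic group the same medians were 0.04, 0.01 and -0.05. C3 also had 23369 summed FPKM of red blood cell markers, against 9177 and 9458 in C1 and C2, and 1057 of pigment epithelium markers, against 482 and 681. The part of this in the low ATF4 values was not tested. In R the library R3 was the highest for ddit4, chac1 and the hsp70 sum, whereas hspa5 and xbp1 were lowest in R3.

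**Figure D4:**
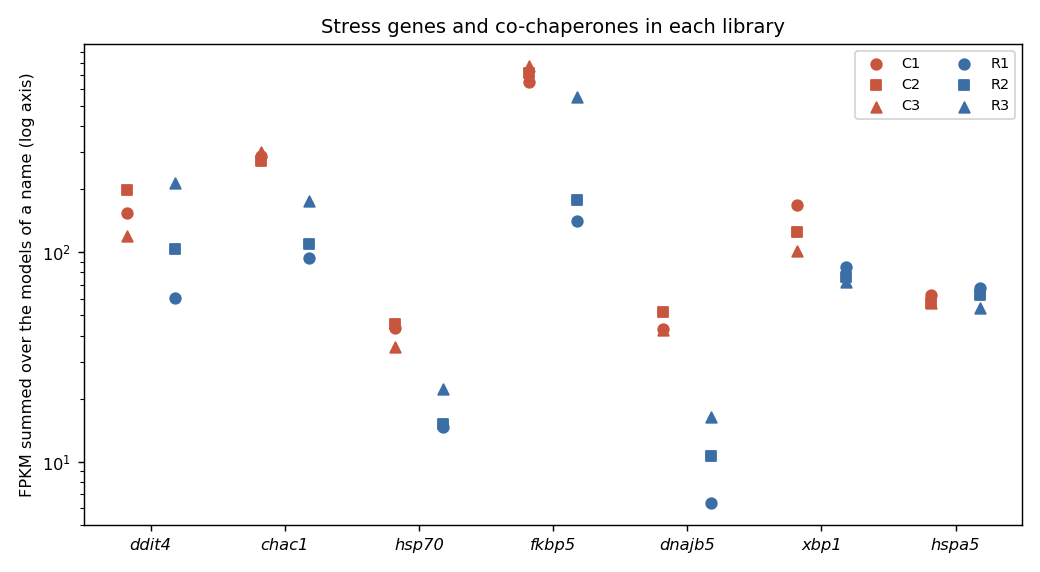
FPKM summed over the models of a name (vertical log axis) in each library, C to the left and R to the right of each name; marker shapes are the library numbers 1 to 3, which do not pair C with R. R3 (triangle) is the highest R library for ddit4, chac1, hsp70, fkbp5 and dnajb5, and the lowest for xbp1 and hspa5.

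Further genes of the same pathways were taken from 4 lists, matched by the same suffix rule. Of 249 models tested, 15 were higher and 10 lower in C, 10.0% against 20.2% of all models. The split moved with scaling, to 29 higher and 9 lower with the median ratio set to 0 and to 22 and 12 with quantile normalization. Over all models 10.9% were higher and 10.1% lower with the median ratio set to 0, and 10.2% and 10.4% with quantile normalization. The count was 8 without R1, 5 without R2, 13 without R3 and 13 without C1. The share of all models called also fell without R1, R2 or C1, as given above. Of the 25 calls, 4 were kept without each library in turn, those of dnajb5, uggt1 and the 2 higher stc2 models. Another 7 models had reached the minimum only through the letter where they were higher, and fell below it without any library of that letter: slc7a1 in C, and dnajb4, edem2, tmbim6, dnaja3, the lower stc2 model and the lower txndc5 model in R. Those leave-outs were fitted on models chosen from all 6 libraries, and all but dnajb4 then kept the call without each library in turn. Of the others, dnajb4 lost its call without C1 (adjusted p = 0.0560), dnajc7 without R2 (adjusted p = 0.0513), and each of the rest without 3 to 5 of the libraries, R2 among them (adjusted p 0.0531 to 0.140). The 7 calls that passed through 1 letter are part of the counts above and of the splits by list below. They lend no support to these counts, to the calls kept or to the splits. Leaving out models of that kind, 17.1% of all models changed, and the like share for these lists was not worked out.

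In the cytosolic list 4 of 69 tested models were higher and 2 lower. The J-domain gene dnajb5 (Cau.46G0000450, chromosome 46, 2166959 to 2167355) had 40.5, 49.5 and 41.5 FPKM in C1, C2 and C3, against 5.41, 9.5 and 15 FPKM in R1, R2 and R3 (log2 fold change 2.12 with an SE of 0.30, adjusted p = 0.00304 by limma). The immunophilin fkbp5, an HSP90 co-chaperone of steroid receptors and a glucocorticoid target in mammals, had 1 of 3 models called (Cau.31G0009350, adjusted p = 0.0366). Summed over its 3 models, fkbp5 was 646, 716 and 774 FPKM in C1, C2 and C3, against 140.1, 178 and 550.0 FPKM in R1, R2 and R3. R1 and R2 were far below R3 in each of its models. Of the chaperonin ring subunits, a copy of cct5 at 53.2 ± 3.06 FPKM in C against 38.8 ± 2.54 in R and a copy of cct8 at 42.5 ± 1.44 FPKM in C against 31.9 ± 1.19 in R were higher in C (adjusted p = 0.0301 and 0.0325). Copies of dnajc7 (4.31 ± 0.824 FPKM in C against 10.5 ± 2.74 in R) and dnajb4 were lower, the dnajb4 copy listed at 0 in all C libraries and at 1.70, 1.06 and 4.91 FPKM in R1, R2 and R3. The lens heat shock factor hsf4 had 7.28 ± 2.31 FPKM in C against 11.3 ± 2.22 in R and was not called (adjusted p = 0.0968), beside the lower lens markers in C given above.

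In the endoplasmic reticulum list 4 of 84 were higher and 6 lower. Those higher were 2 copies of the translocon protein gene ssr1, a copy of vcp, the ATPase that pulls proteins out for degradation (48.1 ± 2.54 FPKM in C against 35.4 ± 2.37 in R), and a copy of txndc5. Those lower were copies of uggt1, the folding sensor of glycoproteins (2.6 ± 0.148 FPKM in C against 6.54 ± 0.794 in R), edem1 (16.6 ± 1.62 FPKM in C against 23.7 ± 2.46 in R) and edem2, which mark glycoproteins for degradation, tmbim6, a second txndc5 copy, and dnajc11, a mitochondrial gene that the suffix rule caught. The tmbim6 copy was listed at 0 in all C libraries and had 3.98, 2.95 and 4.91 FPKM in R1, R2 and R3. The kinase sensors were not called: 5 tested models of ern1, encoding IRE1, had log2 fold changes of -0.43 to 0.02, and the 2 of eif2ak3, encoding PERK, 0.10 and 0.25. The lumenal exchange factor hyou1 had 10.9 ± 1.58 FPKM in C against 15.9 ± 2.62 in R (adjusted p = 0.0608), and the isomerase p4hb had 72.8 ± 8.94 FPKM in C against 97.7 ± 9.35 in R (adjusted p = 0.0698). Neither was called, although in both every C library lay below every R library.

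In the ATF4 list 7 of 80 were higher and 1 lower. Copies of stc2, a secreted stress-induced glycoprotein, moved both ways. Cau.39G0011350 had 17, 16.9 and 32.5 FPKM in C1, C2 and C3, against 3.77, 3.86 and 4.43 FPKM in R1, R2 and R3 and Cau.14G0011510 had 11.6 ± 3.84 FPKM in C against 3.27 ± 0.66 in R (adjusted p = 0.00136 and 0.00365), while the weak Cau.21G0011680 was lower at 0.397 ± 0.0641 FPKM in C against 1.52 ± 0.161 in R. The other higher models were copies of ndrg1 (244 ± 68.5 FPKM in C against 110.0 ± 36.6 in R), the arginine transporter gene slc7a1 (3.08 ± 2.02 FPKM in C against 0.0604 ± 0.105 in R), the phosphatase subunit gene ppp1r15b that helps to restart translation (26.2 ± 3.3 FPKM in C against 16.4 ± 1.68 in R), gpt2 (17.8 ± 4.53 FPKM in C against 9.79 ± 0.485 in R) and the serine synthesis gene phgdh (18.8 ± 4.57 FPKM in C against 11.2 ± 1.65 in R). In the mitochondrial list 1 of 16 was lower, a weak copy of dnaja3, and none was higher.

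Of the genes caught only by the suffix, ddit4l, a relative of ddit4, was higher in C with 24.6, 29.2 and 21.4 FPKM in C1, C2 and C3, against 9.34, 12.9 and 11.8 FPKM in R1, R2 and R3 (log2 fold change 1.08 with an SE of 0.16, adjusted p = 0.00399 by limma). The 4 dnajb12 models, which encode a J-domain protein of the endoplasmic reticulum membrane, were not called, and summed to 49.1 ± 1.75 FPKM in C against 50.4 ± 3.13 in R.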

How the data were processed

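The deposited table holds FPKM that the authors made for 56251 gene models, with positions, lengths and best protein matches; 2 tables of single groups repeat its values. The submitters' processing notes list TopHat2 2.0.9, Bowtie 0.12.5 and DESeq 1.10.1 without roles. A genome build of another species in these notes cannot belong to the goldfish models. The assembly, the counter and any use of strand were not given in the sources used here. Thus overlapping models on opposite strands, 16 of the 121, may share reads. FPKM times gene length came out as whole reads for 100.0% of values, within 0.01 of a read.

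The members and lists were chosen with earlier results of these data known. Roles, named genes (each name's highest model, its sum and every called model) and alternatives followed one written plan. The smaller groupings of lumenal chaperones and folding enzymes and of transcription factors were made outside it. The test was limma 3.58.1 run in R 4.3.3 (robust, trended eBayes), 2-sided, on log2(FPKM + 1) with letter as the only term, fitted over all models, and again over sums by name. It was also run on simulated reads that gave every model the same spread beyond counting error, which the real libraries need not share. That run is no support for the calls here. A test made for counts was not used, since the files hold FPKM; limma-voom on recovered reads was an alternative. Of the 121 models, 100 carry an accession found in the RefSeq table (assembly ASM336829v1, names alone were taken) and 24 a goldfish symbol there. Same-numbered libraries did not deviate together, so the numbers were taken not to pair them.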

Additional observations from a re-analysis of the deposited data

How the results depend on the processing

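No called model or sum changed direction under an alternative that tested it, whereas the endoplasmic reticulum median turned positive, and higher calls came to outnumber lower ones over all models, with the median ratio set to 0. Of 25 called models, 11 kept their call under every alternative that tested them, as did 5 of 9 called sums. Leaving out a library gave 13 to 23 changed models (25 with all libraries), 5 to 12 in the cytosol (11), 1 to 2 in mitochondria (2), 0 to 5 in the endoplasmic reticulum (7, and 2 to 7 with limma-voom), 3 to 5 on the ATF4 axis (4), 5 to 25 among the further pathway genes (25) and 5 to 11 among sums (9). The share of all models called also fell without C1, R1 or R2, as given above. With no filter on low values 1 mitochondrial and 4 endoplasmic reticulum models changed. Among the further pathway genes 16 changed with a mean of at least 5 FPKM required and 38 with the median ratio set to 0. The cause was not tested. On recovered reads limma-voom called 3032 of all tested models higher and 4317 lower in C, and 29 of the models described here. All alternatives for the further pathway genes, limma-voom without single libraries, and leave-outs with models chosen on all 6 libraries, were chosen after seeing the data. With the replicate number as a replicate block, 24 models changed, and 10, 2, 7 and 4 in the 4 role groups, with 23 pathway models and 8 sums; the calls of serpinh1 Cau.10G0009230, hspa4 Cau.21G0012630 and the hsph1 sum were lost (adjusted p = 0.0723, 0.0762 and 0.0513). Correlations of same-numbered libraries' deviations were -0.005, 0.099 and 0.039. With 3 libraries a letter, models near 1 FPKM rest on few reads: 3 reads in 1 kb are 0.265 to 0.318 FPKM, and intervals of that kind cover counting error only.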

Other observations

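Relatives that the name rule did not reach were chosen after their values were seen and were not tested as a set. They include the small heat shock gene hsp30 and further HSP70 models. Because of that choice, their separation lends no support to the results above. Of all tested models, 41.4% were apart in either direction. Small heat shock proteins hold unfolding proteins in solution. The 6 models named hsp30 summed to 7.49, 11.5 and 7.22 FPKM in C1, C2 and C3, against 2.2, 2.8 and 3.31 FPKM in R1, R2 and R3. Every C library lay above every R library. Most of the C total came from 1 model on chromosome 13, Cau.13G0001300, with 95 reads over the C libraries and 4 over the R libraries, while the model on chromosome 3, Cau.03G0010840, was at 0.981 FPKM in C and 2.02 FPKM in R.

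The 3 models whose best match is an HSP70 of medaka without a gene name summed to 9.09, 11.9 and 8.33 FPKM in C1, C2 and C3, against 2.75, 4.02 and 4.37 FPKM in R1, R2 and R3, again with no overlap. The HSP90 models named hsp90a.1, outside the listed spelling hsp90aa1, overlapped between the letters as a sum, at 82.1 ± 9.0 FPKM in C against 74.2 ± 7.55 in R (SD, n = 3 each).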
